A study of Rattus norvegicus with 16 samples.

Results

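The oligodendrocyte lineage genes described here are 9 genes that mark the steps from a dividing precursor to a myelin-forming cell: Pdgfra, Cspg4, Olig2 and Sox10 for precursors, Olig1 for the lineage as a whole, and Bcas1, Cnp, Mbp and Mag for the myelinating stage. Members were all array probes that carry one of these gene names, which gave 11 probes for 9 of 9 genes (Bcas1 and Mbp had 2 probes each) out of 41012 probes and 35199 gene names. The cells were primary cultures of hippocampal neurons, prepared at embryonic day 18 to 19 from Sprague-Dawley rats of either sex, and every group shares this mixed embryonic source. They were studied in 4 groups of 4 biological replicates. Knockdown cultures (KD) received a lentivirus, made with pTRIP vectors, for a short hairpin RNA against the coding region of PRR7, a membrane protein found at synapses. Overexpression cultures (OE) received a lentivirus that carries full-length PRR7 in the FUGW vector. Nontargeting cultures (NT) received a lentivirus with a hairpin of a nontargeting sequence, and the untreated cultures (NO) received no virus. The overexpression virus had no empty-virus group of its own, and the labels name 1 target sequence for the knockdown. Neither the knockdown nor the overexpression was checked here at the PRR7 transcript.

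RNA was hybridised to 8 Agilent rat arrays in 2 dyes, with replicates 1 and 2 of a group on one array and replicates 3 and 4 on another. Replicates 1 and 3 carried Cy3 and replicates 2 and 4 carried Cy5. KD and NT lay on 1 slide, OE and NO on the other. Only KD against NT and OE against NO thus stay within a slide, and for the remaining pairs slide and group cannot be told apart. In all, between 49.2% and 69.6% of the probes were well above background in a sample, and the number of arrays limits the precision. Of all probes, 27294 were tested, among them all 11 member probes.

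In the embryo, oligodendrocyte precursors arise from ventral and later dorsal progenitors under the control of the transcription factors Olig2 and Olig1, divide in response to platelet-derived growth factor through the receptor Pdgfra, and carry the proteoglycan Cspg4 (NG2) on their surface. Sox10 keeps cells in the lineage and drives myelin genes. Bcas1 marks cells that have begun to differentiate and form myelin, and Cnp, Mbp and Mag encode an enzyme, a compacting protein and an adhesion protein of myelin. Pdgfra and Cspg4 are also made outside the lineage, by fibroblasts and pericytes.

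What the array reads from each gene is a stretch of 60 bases, and the sequences below are taken from those stretches. The probes of Olig2, Cnp and Mag and the second probe of Mbp were taken to lie in the coding part of the transcript. This was not looked up in an annotation of exons. These probes are given whole, 5′ to 3′ on the transcript strand, from the annotation of the array on rat build rn4.
Olig2, chr11:31206908-31206967, plus strand: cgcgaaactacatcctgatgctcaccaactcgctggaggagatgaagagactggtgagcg
Cnp, chr10:89524880-89524939, plus strand: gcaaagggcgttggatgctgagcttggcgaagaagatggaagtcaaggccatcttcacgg
Mbp, probe 2, chr18:79044276-79046214, plus strand: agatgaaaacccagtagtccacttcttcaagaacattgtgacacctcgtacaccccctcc
Mag, chr1:85954956-85955015, minus strand: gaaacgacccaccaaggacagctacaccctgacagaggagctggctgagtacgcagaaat
The second Mbp probe covers 1939 bases of the genome with its 60 bases and so spans an intron. The probes of Cspg4 (chr8:60645806-60645865, plus strand) and Sox10 (chr7:117138840-117138899, minus strand) hold the polyadenylation signal AATAAA, shown in capitals in a stretch of 30 bases of each.
Cspg4: ttcaaggggggaaacaaAATAAAaataaat
Sox10: cagcgatatcttAATAAAgtacgtagctct
AATAAA was searched on the transcript strand alone and was found in 4.3% of the 41012 probes. Of the genes that moved most, Olig1 (chr11:31246213-31246272, plus strand) and Bcas1 (probe 1 at chr3:161395111-161395170 and probe 2 at chr3:161395746-161395805, both on the minus strand) are shown by the first 30 bases of their probes.
Olig1: atgccgcgtctgcgtcttggcttgtgatta
Bcas1, probe 1: tctgacgcttatctcacgcctgtctgtaat
Bcas1, probe 2: ttcctggcatataagtgtataaatgggtta
A run of 16 bases was shared by the Cspg4 probe with a probe for LOC286987, and by the Olig2 probe with a probe for Olr1702. The other 9 member probes shared no such run with a probe of another gene on the same strand.

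All levels below are log2 intensities after normalization, and a difference of 1 on that scale is a doubling of the signal. Because a constant of 50 was added before the logarithm, changes of dim probes are understated. The probes differed in how far they stood above background. Olig1, probe 1 of Bcas1, Cnp and probe 1 of Mbp were well above background in all 16 samples, Cspg4 and Sox10 in 15, Olig2 and probe 2 of Bcas1 in 13, Mag in 12, probe 2 of Mbp in 9, and Pdgfra in 7. Pdgfra passed in 1 of 8 Cy3 samples and in 6 of 8 Cy5 samples, and probe 2 of Mbp in 2 and 7, so the detection of both followed the dye. Olig2 leaned the same way, at 5 and 8. No member probe was saturated. In these bulk cultures fewer cells of a type and less RNA per cell cannot be told apart.

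**Figure D1:**
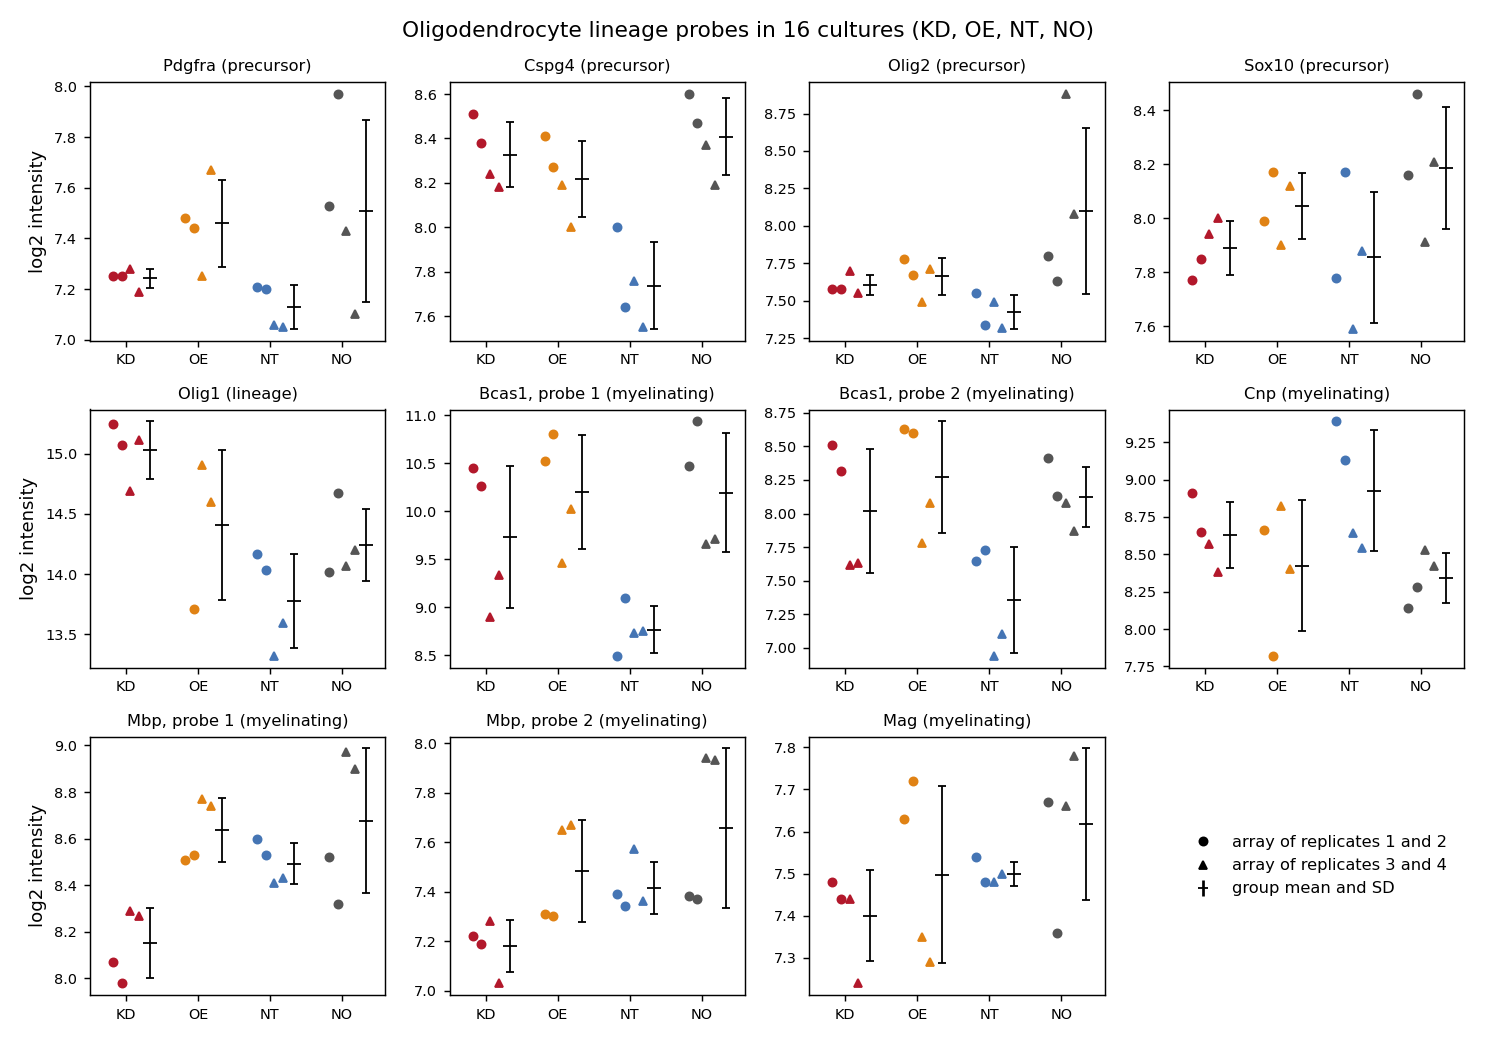
Log2 intensity of each of the 11 member probes (y axis) in the cultures of the KD, OE, NT and NO groups (x axis). Circles are replicates 1 and 2, which share an array, triangles are replicates 3 and 4, and bars give the group mean and SD. NT had the lowest mean for Cspg4, Olig1 and both Bcas1 probes, and KD the lowest for both Mbp probes.

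Knockdown was compared with the nontargeting hairpin to ask what loss of PRR7 changes beyond the effect of a hairpin virus. Cspg4 and Olig1 were higher in KD cultures, and no member was lower. These 2 of 9 genes stood against 21.1% of all probes past the same test, and 10.3% of all probes were called higher. The share of members past the test was thus near the background. In 3 members the KD and NT groups did not overlap, against 37.7% of all probes. The median of the 9 members was 0.11, against -0.02 for all probes.

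Cspg4, the NG2 proteoglycan of precursors and pericytes, measured 8.51, 8.38, 8.24 and 8.18 in KD cultures, against 8.0, 7.64, 7.76 and 7.55 in NT cultures. Every KD culture lay above every NT culture. The difference was 0.59 (SE 0.12), or 1.51-fold, with a limma adjusted p = 0.00316, and it was 0.63 between the arrays of replicates 1 and 2 and 0.56 between those of replicates 3 and 4. Without the KD array of replicates 1 and 2 the difference was 0.48 and the adjusted p = 0.062.

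Olig1, the basic helix-loop-helix factor expressed along the whole lineage, measured 15.25, 15.07, 14.69 and 15.11 in KD cultures, against 14.17, 14.03, 13.32 and 13.59 in NT cultures. The groups did not overlap, and the difference of 1.26 (SE 0.33), or 2.39-fold, had a limma adjusted p = 0.0145. It was 1.06 between the arrays of replicates 1 and 2 and 1.44 between those of replicates 3 and 4. With the mean of each array as the unit the adjusted p was 0.0541, without the KD array of replicates 1 and 2 it was 0.108, and without the NT array of replicates 3 and 4 it was 0.104. The median signal of Olig1 above background, before normalization, was 20986.3, against 56.1 for Pdgfra, 211.4 for Cspg4, 103.3 for Olig2 and 148 for Sox10. With dye means removed, its Pearson correlation was 0.56 with Cspg4, 0.19 with Pdgfra, 0.06 with Sox10 and -0.06 with Olig2. Whether this single probe follows the lineage was not tested.

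The other precursor genes differed little between KD and NT. Olig2, the factor that specifies the lineage, measured 7.58, 7.58, 7.70 and 7.55 in KD cultures, against 7.55, 7.34, 7.49 and 7.32 in NT cultures. These groups overlapped, with a difference of 0.17 (95% interval -0.35 to 0.70). Pdgfra, the growth factor receptor, ranged over 7.19 to 7.28 in KD cultures and 7.05 to 7.21 in NT cultures, a difference of 0.11 (95% interval -0.33 to 0.55). Sox10 ranged over 7.77 to 8.0 in KD cultures and 7.59 to 8.17 in NT cultures, a difference of 0.04 (95% interval -0.23 to 0.30). Without normalization between arrays, where the median of all probes lay at 0.64, Pdgfra and Sox10 passed at 1.04 and 0.77 (limma adjusted p = 0.0415 and 0.0213).

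Bcas1, the marker of early myelinating cells, was read by 2 probes. Probe 1 measured 10.45, 10.26, 8.90 and 9.33 in KD cultures, against 8.49, 9.09, 8.73 and 8.75 in NT cultures. The KD cultures of replicates 1 and 2 were high and those of replicates 3 and 4 lay near NT. The difference was 0.97 (SE 0.39, limma adjusted p = 0.0964), made up of 1.57 between the arrays of replicates 1 and 2 and 0.38 between those of replicates 3 and 4. Probe 2 differed by 0.67 (SE 0.28, limma adjusted p = 0.102), with 0.73 and 0.61 between the arrays of those pairs. With the replicate number as a block, limma gave adjusted p = 0.0168 for probe 1 and 0.00608 for probe 2. Both probes also passed in the deposited log2 values, at 1.39 (limma adjusted p = 0.00412) and 1.28 (0.0187), and without normalization between arrays, at 1.42 (0.0282) and 1.27 (0.019), where the median of all probes lay at 0.64. With the scanner's processed signals probe 2 passed, at 1.77 (limma adjusted p = 0.0474). Without the KD array of replicates 1 and 2 the differences were 0.35 for probe 1 and 0.27 for probe 2, and without that of replicates 3 and 4 they were 1.59 and 1.06 (limma adjusted p = 0.024 and 0.0381). Probe 2 differed by 1 without the NT array of replicates 1 and 2 (limma adjusted p = 0.0332) and by 0.34, without passing, when that of replicates 3 and 4 was left out.

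The remaining myelin genes pointed the other way without passing the test. Mbp, the protein that compacts myelin, measured 8.07, 7.98, 8.29 and 8.27 on probe 1 in KD cultures, against 8.60, 8.53, 8.41 and 8.43 in NT cultures. The groups did not overlap, and the difference was -0.34 (SE 0.15, limma adjusted p = 0.119). Probe 2 ranged over 7.03 to 7.28 in KD cultures and 7.34 to 7.57 in NT cultures, a difference of -0.23 (SE 0.16, limma adjusted p = 0.334). Cnp, a phosphodiesterase of myelin, ranged over 8.38 to 8.91 in KD cultures and 8.54 to 9.39 in NT cultures, a difference of -0.30 (95% interval -0.84 to 0.24). Mag, an adhesion protein of the inner myelin layer, ranged over 7.24 to 7.48 in KD cultures and 7.48 to 7.54 in NT cultures, a difference of -0.10 (95% interval -0.40 to 0.21). Without normalization between arrays, where the median of all probes itself lay at 0.64, the differences of Cnp, Mag and both Mbp probes turned positive, at 0.26 for Cnp, 0.76 for Mag, 0.35 for Mbp probe 1 and 0.72 for Mbp probe 2. Relative to that median, probe 2 of Mbp and Mag were then slightly higher in KD, and Cnp and probe 1 of Mbp lower.

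**Figure D2:**
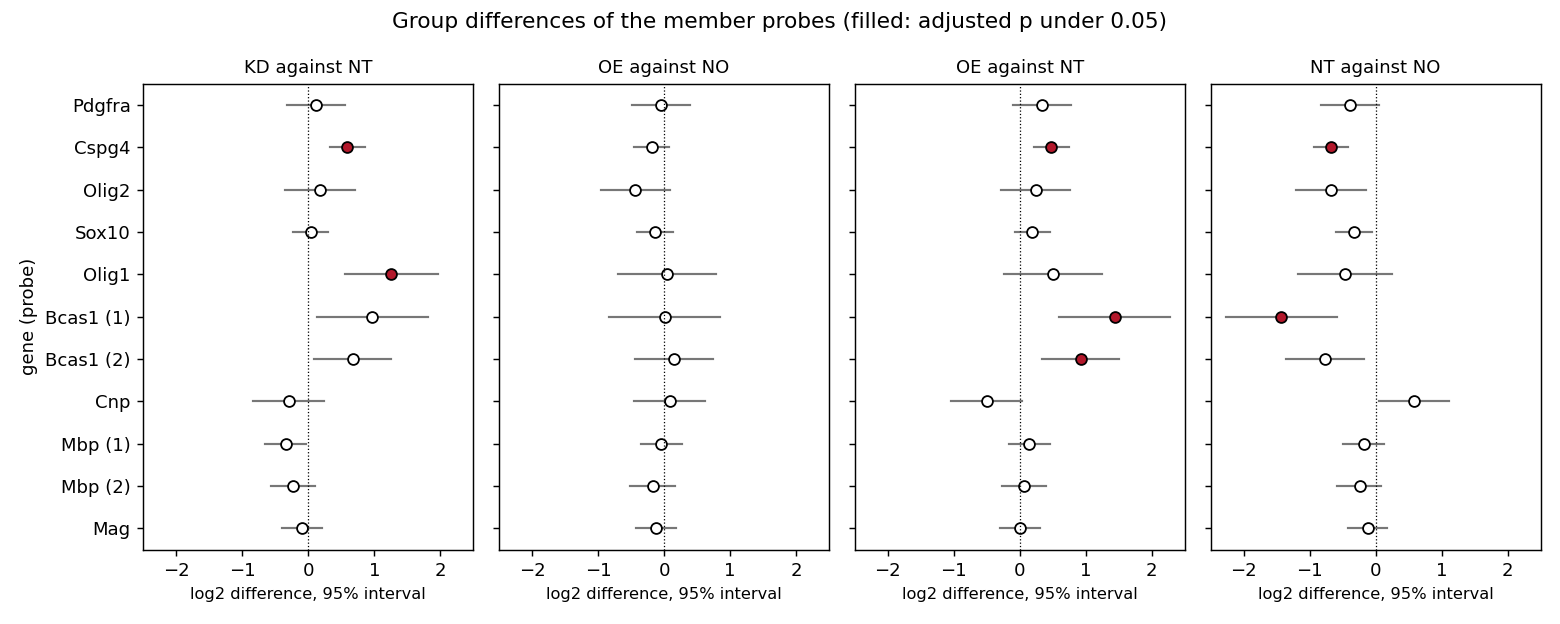
Log2 difference (x axis, point) with its 95% interval (line) for each member probe (y axis) in KD against NT, OE against NO, OE against NT and NT against NO. Filled points passed the test: Cspg4 and Olig1 in KD against NT, none in OE against NO, Cspg4 and both Bcas1 probes in OE against NT, and Cspg4 and Bcas1 probe 1 in NT against NO.

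Overexpression was compared with untreated cultures on the same slide. No member passed the test, and none did so at an unadjusted p under 0.05. Across all 27294 probes limma called 1, or 0.00366%, and 1045 probes, or 3.83%, had an unadjusted p under 0.05. The called probe was that of Eftud2, a spliceosome component, with a difference of 1.71. No member had groups that did not overlap, against 6.5% of all probes.

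The differences of the members in OE against NO lay between -0.44 for Olig2 and 0.15 for probe 2 of Bcas1. Olig2 measured 7.78, 7.67, 7.49 and 7.71 in OE cultures, against 7.80, 7.63, 8.88 and 8.08 in NO cultures. Replicate 3 of NO was the highest of the 16 cultures, and the arrays of replicates 1 and 2 differed by 0.00 against -0.88 for those of replicates 3 and 4. Bcas1 probe 1 measured 10.52, 10.81, 9.46 and 10.02 in OE cultures, against 10.47, 10.94, 9.66 and 9.71 in NO cultures. Both groups had their high values in replicates 1 and 2, and the difference was 0.01 (95% interval -0.83 to 0.85). The precursor genes Pdgfra, Cspg4 and Sox10 differed by -0.04 (95% interval -0.48 to 0.39), -0.19 (-0.46 to 0.07) and -0.14 (-0.41 to 0.13). Olig1 differed by 0.04 (95% interval -0.70 to 0.79), with 3 OE values of 13.71, 14.91 and 14.60 because the spot of replicate 1 was an outlier and was left out. Cnp, Mbp on probe 1 and Mag differed by 0.09, -0.04 and -0.12, with intervals that reached no further than -0.45 and 0.62. Differences called for Cspg4, Olig1, Bcas1 and Mbp in other comparisons, given beside those comparisons, lay outside the interval of the same probe in OE against NO. The comparisons share their estimate of the spread for each probe. A called difference thus falls outside an interval around a small difference almost by construction, and nothing is concluded from it.

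The nontargeting cultures had the lowest mean for several members, but not for Cnp, Mbp or Mag. In NT against NO, Cspg4 and Bcas1 were lower, and 2 of 9 members stood against 22.2% of all probes past the test and 11% lower. The share of members past the test was thus near the background. Groups did not overlap in 4 members, against 32.2% of all probes. The median of the members was -0.38, against 0.03 for all probes. Slide and group cannot be told apart here, and the NT cultures are the same as those compared with KD.

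Cspg4 measured 8.0, 7.64, 7.76 and 7.55 in NT cultures, against 8.60, 8.47, 8.37 and 8.19 in NO cultures, with no overlap. The difference of NT against NO was -0.67 (SE 0.12, limma adjusted p = 0.00137). Bcas1 probe 1 averaged 8.76 ± 0.25 in NT cultures and 10.20 ± 0.62 in NO cultures (SD, n = 4 each), with no overlap. Its difference was -1.43 (SE 0.39), with a limma adjusted p = 0.017, and was -1.92 between the arrays of replicates 1 and 2 and -0.94 between those of replicates 3 and 4. With array means as the unit the adjusted p was 0.0967, without the NT array of replicates 3 and 4 it was 0.0617, and without the NO array of replicates 1 and 2 it was 0.192, with a difference of -0.92. Probe 2 measured 7.65, 7.73, 6.94 and 7.10 in NT cultures, against 8.41, 8.13, 8.08 and 7.87 in NO cultures. Those groups did not overlap either, and the difference was -0.77 (SE 0.28, limma adjusted p = 0.0574). Probe 2 passed in the deposited log2 values, at -1.27 (limma adjusted p = 0.0213), with the scanner's processed signals, at -2.05 (0.0246), and without the NT array of replicates 1 and 2, at -1.1 (0.0213).

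Below the threshold in NT against NO, Olig2 differed by -0.67 (limma adjusted p = 0.0636), Sox10 by -0.33 (limma adjusted p = 0.0714), Pdgfra by -0.38 and Olig1 by -0.46. Olig2 passed in the deposited log2 values, at -1.16 (limma adjusted p = 0.00905), with the scanner's processed signals, at -1.85 (0.0119), and with quantile in place of loess, at -0.69 (0.0483). It also passed without the NO array of replicates 1 and 2, at -1.05 (limma adjusted p = 0.0148), without NO replicate 3, at -0.47 (0.0474), and without NO replicate 4, at -0.78 (0.0339). Sox10 passed with the scanner's processed signals, at -0.76 (limma adjusted p = 0.0231), without NT replicate 2, at -0.39 (0.0402), and without the NT array of replicates 1 and 2, at -0.45 (0.0229). Cnp alone was on the positive side, at 0.58 (limma adjusted p = 0.111), and passed without the NT array of replicates 3 and 4, at 0.92 (0.023). Cnp measured 9.39, 9.13, 8.64 and 8.54 in NT cultures, against 8.14, 8.28, 8.53 and 8.42 in NO cultures. The groups did not overlap, but the arrays of replicates 3 and 4 differed by 0.12 and those of replicates 1 and 2 by 1.05. Mbp on probe 1 and Mag differed by -0.18 and -0.12. Without the NO array of replicates 1 and 2 both Mbp probes passed, at -0.44 and -0.52 (limma adjusted p = 0.0393 and 0.0332).

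In OE against NT, which shares the NT cultures with both comparisons above, Cspg4 and Bcas1 were higher. The 2 of 9 members stood against 22.5% of all probes past the test and 10.6% higher, and groups did not overlap in 3 members, against 36.7% of all probes. Here too the share of members past the test was near the background. Cspg4 measured 8.41, 8.27, 8.19 and 8.0 in OE cultures, and none lay below an NT culture, though OE replicate 4 and NT replicate 1 both round to 8.0. The difference was 0.48 (SE 0.12, limma adjusted p = 0.0119). Bcas1 was higher by 1.44 on probe 1 (SE 0.39, limma adjusted p = 0.0161) and by 0.92 on probe 2 (SE 0.28, limma adjusted p = 0.0258). On array means none of these held, with limma adjusted p = 0.0766 for Cspg4, 0.0952 for Bcas1 probe 1 and 0.12 for probe 2. Without the NT array of replicates 3 and 4 the limma adjusted p was 0.0708 for Cspg4, 0.0604 for Bcas1 probe 1 and 0.197 for probe 2. Without the OE array of replicates 1 and 2 it was 0.148 for Cspg4, 0.196 for Bcas1 probe 1 and 0.273 for probe 2.

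Mbp was the only member past the test in KD against NO and in KD against OE, where slide and group cannot be told apart. In both, the share of members past the test was near that of all probes. In KD against NO, 1 of 9 members passed, against 10.1% of all probes (4.77% higher and 5.38% lower), and it was lower. In KD against OE, 1 of 9 passed, against 10.3% of all probes (5.55% higher and 4.79% lower), and it too was lower. The groups did not overlap in 2 members in KD against NO and in 1 in KD against OE, against 29.6% and 36.1% of all probes. Those members were Mbp and Olig1 against NO, and Mbp against OE. Mbp probe 1 measured 8.07, 7.98, 8.29 and 8.27 in KD cultures, against 8.51, 8.53, 8.77 and 8.74 in OE cultures and 8.52, 8.32, 8.97 and 8.90 in NO cultures. Every KD culture lay below every OE and every NO culture. The difference was -0.52 against NO (SE 0.15, limma adjusted p = 0.034) and -0.48 against OE (SE 0.15, limma adjusted p = 0.0482). Probe 2 of Mbp differed by -0.47 against NO (limma adjusted p = 0.071) and by -0.30 against OE (limma adjusted p = 0.253). With the replicate number as a block, limma gave probe 2 an adjusted p = 0.0303 against NO. Probe 2 also passed against NO in the deposited log2 values, at -0.99 (limma adjusted p = 0.0465), with the scanner's processed signals, at -1.6 (0.0439), and without the NO array of replicates 1 and 2, at -0.75 (0.0104).

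The Mbp calls lay close to the threshold. Against NO, the limma adjusted p of probe 1 rose above it without any of KD replicates 1, 2 and 3 and NO replicates 1, 3 and 4, where it lay between 0.0509 and 0.0716. It was also above it without the KD array of replicates 1 and 2 (0.283), without that of replicates 3 and 4 (0.0629) and without the NO array of replicates 3 and 4 (0.304). Against OE, no leave-out of a culture or an array kept the call, with limma adjusted p between 0.0513 and 0.343. On array means the adjusted p was 0.173 against NO and 0.199 against OE.

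The order of the 4 group means differed by gene. Cspg4, Pdgfra, Olig2 and Sox10 were highest in NO and lowest in NT. Mean levels of Pdgfra were 7.24 ± 0.04 in KD, 7.46 ± 0.18 in OE, 7.13 ± 0.09 in NT and 7.51 ± 0.36 in NO (SD, n = 4 each), and no pair of groups passed the test in these values. OE against NT passed with the scanner's processed signals, at 1.83 (limma adjusted p = 0.0385). Olig2 had means of 7.60 ± 0.07 in KD, 7.66 ± 0.12 in OE, 7.43 ± 0.11 in NT and 8.10 ± 0.56 in NO. Sox10 had means of 7.89 ± 0.10 in KD, 8.04 ± 0.12 in OE, 7.85 ± 0.24 in NT and 8.19 ± 0.23 in NO, and again no pair passed in these values. Olig1 had means of 15.03 ± 0.24 in KD (n = 4), 14.41 ± 0.62 in OE (n = 3), 13.78 ± 0.39 in NT (n = 4) and 14.24 ± 0.30 in NO (n = 4), and of the pairs only KD against NT passed in these values. KD against NO also passed in the deposited log2 values, at 1 (limma adjusted p = 0.00894), and with only those 2 groups in the fit (0.0462). KD against OE passed in the deposited values, at 0.96 (limma adjusted p = 0.00781), and without the OE array of replicates 3 and 4, at 1.42 (0.0441). Bcas1 probe 1 had means of 9.74 ± 0.74 in KD, 10.20 ± 0.59 in OE, 8.76 ± 0.25 in NT and 10.20 ± 0.62 in NO, and only the NT mean differed from others past the test. Cnp ran the other way, with means of 8.63 ± 0.22 in KD, 8.43 ± 0.44 in OE, 8.93 ± 0.40 in NT and 8.34 ± 0.17 in NO, and no pair passed in these values. Without the NT array of replicates 3 and 4, OE against NT passed at -0.83 (limma adjusted p = 0.0362). Mag lay within 7.40 ± 0.11 in KD, 7.50 ± 0.21 in OE, 7.50 ± 0.03 in NT and 7.62 ± 0.18 in NO, and no pair passed.

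Precursor and myelinating-stage genes were set against each other as groups, without a test. In KD against NT the median difference of the 4 precursor genes was 0.14 and that of the 4 myelinating-stage genes was -0.20. Of the precursor genes 4 of 4 were on the positive side, and of the myelinating-stage genes 1 of 4, Bcas1. The difference between these medians was 0.34, against 0.56 in the deposited log2 values and 1 with the scanner's processed signals. In no other comparison did the medians of the stages have opposite signs. The opposite sign in KD against NT rested on the use of medians. The mean of the myelinating-stage genes, each centred on its mean over the 16 cultures, was -0.10 in KD and -0.16 in NT. By that measure both stages were higher in KD, with precursor means of -0.04 in KD and -0.26 in NT. The precursor and the myelinating-stage median were -0.17 and -0.02 in OE against NO, -0.52 and -0.15 in NT against NO, and -0.28 and -0.34 in KD against NO. They were 0.28 and 0.07 in OE against NT, and -0.11 and -0.28 in KD against OE. The difference between the medians in NT against NO was -0.37, against -0.72 in the deposited log2 values and -1.16 with the scanner's processed signals. In OE against NO it was -0.15, and it was 0.09 without the array of NO replicates 1 and 2. Per sample, the mean of the precursor genes minus that of the myelinating-stage genes, each gene centred on its mean over the 16 cultures, was -0.18, -0.04, 0.27 and 0.20 in KD cultures, against -0.09, -0.20, -0.07 and -0.08 in NT cultures. The KD cultures of replicates 3 and 4 lay above all NT cultures and those of replicates 1 and 2 among them. The same value was -0.14, -0.05, -0.12 and 0.04 in OE cultures, against 0.10, 0.18, 0.22 and -0.03 in NO cultures. The precursor mean by itself separated the hairpin groups, with -0.03, -0.03, -0.01 and -0.07 in KD cultures, against -0.16, -0.21, -0.33 and -0.35 in NT cultures. The myelinating-stage mean did not, with -0.28 to 0.15 in KD cultures and -0.27 to -0.02 in NT cultures. Of the precursor genes only Cspg4 separated these groups by itself, while Pdgfra, Olig2 and Sox10 overlapped. Among all probes, 37.7% did not overlap in KD against NT.

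**Figure D3:**
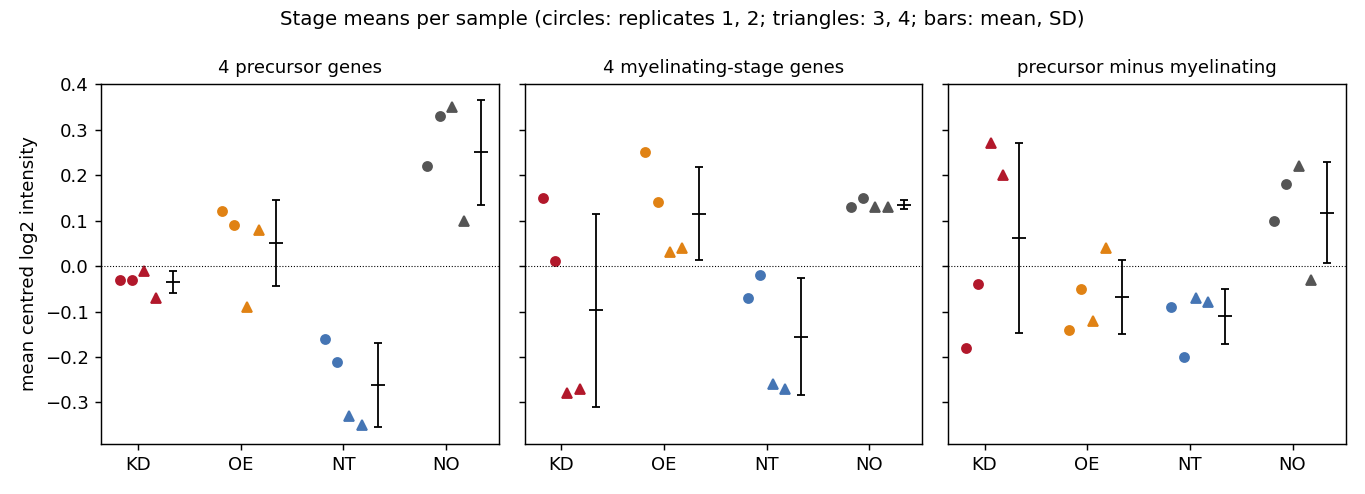
Mean of the 4 precursor genes, mean of the 4 myelinating-stage genes, and their difference (y axis, log2, each gene centred on its mean over the 16 cultures) in the KD, OE, NT and NO groups (x axis). Circles are replicates 1 and 2, triangles replicates 3 and 4, and bars the mean and SD. The precursor mean lay at -0.26 ± 0.09 in NT and at 0.25 ± 0.12 in NO, and the difference of stages ranged over -0.18 to 0.27 in KD.

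Other genes of the lineage, from lists made with earlier results of these data known, were read in the same fit. Of 12 further precursor genes tested and reported here, 1 was higher and 1 lower in KD against NT, against 21.1% of all probes called, with a median of 0.08. Sox6, a factor that holds precursors back from differentiation, was higher by 0.39 (limma adjusted p = 0.0395), with 0.72 on its other probe. Dll3, a Notch ligand of neural progenitors, had a mean of 8.80 in KD cultures, against 9.46 in NT cultures, a difference of -0.67 (limma adjusted p = 0.00468). In NT against NO, 2 of the 12 were higher and 2 lower, against 22.2% of all probes called, with a median of 0.07. Bcan and Vcan, proteoglycans of the extracellular matrix, differed by -1.14 and -1.02 (limma adjusted p = 0.00514 and 0.00646). The postsynaptic gene Lrrtm3 differed by 0.81 and Dll3 by 0.43. The other probe of Bcan was lower as well, at -0.61, while that of Vcan, at -0.53, did not pass. Chst11 and Rlbp1 were too dim to be tested.

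Of 12 further myelinating-stage genes tested and reported here, 3 passed in KD against NT, a share near the 21.1% of all probes called, and the median of the 12 was -0.31. Car2, a carbonic anhydrase, Tspan2, a tetraspanin, and Pllp, plasmolipin, were lower, with differences of -0.83, -0.71 and -1.38 (limma adjusted p = 9.87e-05, 0.00119 and 0.00217). The other Tspan2 probe did not pass, at 0.22. Plekhb1, a membrane protein with a pleckstrin domain, lay on the positive side, at 0.82 (limma adjusted p = 0.0595). The same list in NT against NO held 3 higher and 1 lower gene, against 22.2% of all probes called, with a median of 0.28. Plekhb1 differed by -1.06 (limma adjusted p = 0.0164). Car2 and Tspan2 differed by 1.12 and 0.86, and the receptor Gpr37 by 0.39. On its other probe Tspan2 did not pass here either, at 0.05.

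Another 12 genes of the myelinating-stage list were on the array but too dim to be tested: Mal, Opalin, Cldn11, Ugt8, Myrf, Nkx6-2, Enpp6, Ermn, Fa2h, Gjc3, Ninj2 and Zfp488 were well above background in at most 3 of the 16 samples. Among them Myrf, the master regulator of myelination, passed in 2 samples and Opalin, a late myelin protein, in 0. Mog and Mobp, which mark mature oligodendrocytes, were tested and differed by -0.38 and -0.65 in KD against NT without passing, and by 0.10 and -0.09 on their other probes. Cldn11, a tight junction protein of myelin, passed in 3 samples and Ermn, a cytoskeletal protein of myelin, in 0. The label of the oligodendrocyte lineage thus rests on probes of unequal signal. Among the members, Olig1, Cnp, probe 1 of Bcas1 and probe 1 of Mbp were well above background in all 16 samples. The counted probes of Mog and Mobp were so as well. The precursor genes were so in 7 (Pdgfra) to 15 samples, and several late markers were at or near background.

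Signals that act on the lineage were read from 25 tested genes. In KD against NT, 4 were higher and 2 lower, a share near the 21.1% of all probes called, with a median of 0.03. The neuregulin gene Nrg1, a growth factor of axons, was higher by 1.35 (limma adjusted p = 2.6e-05), with 0.27 and 0.06 on its other probes, the last of which did not pass. Lingo1, a neuronal receptor component that restrains myelination, had means of 13.07 in KD, 13.33 in OE, 11.67 in NT and 13.30 in NO. It was higher in KD than in NT by 1.40 (limma adjusted p = 3.5e-05). Thrb, a thyroid hormone receptor, and Igf1r, the receptor of insulin-like growth factor, were higher by 1.2 and 0.69. Gli1, a target of hedgehog signalling, and Jag1, a Notch ligand, both named after their values were seen, differed by -0.42 and -0.38. On its other probes Gli1 did not pass, at -0.15 and -0.07. For NT against NO, 3 were higher and 5 lower, against 22.2% of all probes called, with a median of -0.14. Lingo1, Thrb and Fgfr3 differed by -1.63, -0.98 and -0.62, and Id2, an inhibitor of differentiation, by 1.73. On its other probe Id2 differed by 1.55 and did not pass (limma adjusted p = 0.051). Pdgfa, the ligand of Pdgfra, had means of 12.18 in KD cultures and 12.17 in NT cultures. Pdgfb, Bmp4, Shh, Erbb3 and Erbb4 were too dim to be tested.

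**Figure D4:**
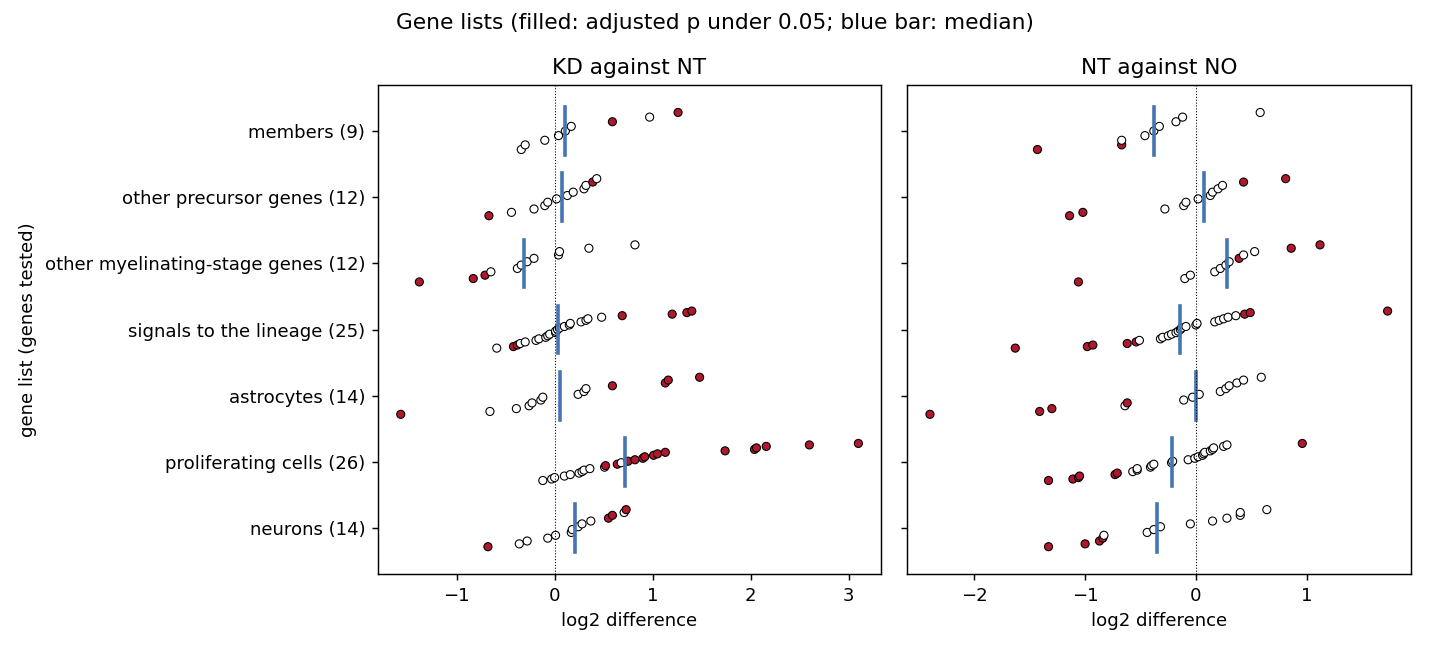
Log2 difference (x axis) of the tested genes of the members and of 6 other lists (y axis, with the number of genes) in KD against NT and in NT against NO. Filled points passed the test and blue bars are medians. In KD against NT the median of the proliferation list lay at 0.71, that of the other myelinating-stage genes at -0.31 and that of the other precursor genes at 0.08.

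Marker lists of other cells were read beside the members, against 21.1% of all probes called in KD against NT and 22.2% in NT against NO. Of 26 proliferation genes, 15 were higher and 0 lower in KD against NT. The transcription factor E2f1 differed by 2.16, the replication helicase subunits Mcm3 and Mcm6 by 3.1 and 2.06, and the cyclin Ccne1 by 2.60. The mean of that list, centred per gene, ranged over 0.44 to 0.71 in KD, -0.19 to 0.01 in OE, -0.42 to -0.28 in NT and -0.28 to 0.06 in NO. Of 14 astrocyte genes, 4 were higher and 1 lower in KD against NT, the glutamate transporter Slc1a3 by 1.16, S100b by 1.13, glutamine synthetase Glul by 1.48 and the transporter Slc1a2 by 0.59. The other probe of Slc1a2, at 0.03, did not pass. Gfap, the astrocyte filament named after its value was seen, differed by -1.57. For NT against NO, 0 astrocyte genes were higher and 4 lower, namely Slc1a3 by -1.30, Glul by -2.40, S100b by -1.41 and Fgfr3 by -0.62. The astrocyte mean ranged over -0.14 to -0.03 in KD, 0.17 to 0.48 in OE, -0.44 to -0.16 in NT and -0.34 to 0.25 in NO. S100b is also made by cells of the oligodendrocyte lineage. The part of these cells in the results on the members was not tested.

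Of 14 neuron genes, 3 were higher and 1 lower in KD against NT, a share near that of all probes (21.1%). Dcx, a microtubule protein of young neurons, differed by 0.73, Thy1 by 0.59, Eno2 by 0.55 and the neurofilament Nefl by -0.68. The neuron mean ranged over -0.05 to 0.07 in KD, -0.03 to 0.02 in OE, -0.30 to -0.04 in NT and 0.03 to 0.32 in NO. Of 8 microglia genes 1 was higher, Lyz2 by 1.47, and of 7 pericyte and smooth muscle genes 1 was higher, Anpep by 0.78. The microglia mean ranged over 0.07 to 0.11 in KD and -0.19 to -0.06 in NT, and the pericyte and smooth muscle mean over -0.07 to 0.02 in KD and -0.07 to -0.01 in NT. None of 7 fibroblast and meninges genes, Pdgfra among them, and none of 5 Schwann cell genes passed in KD against NT. The fibroblast mean ranged over -0.11 to 0.03 in KD and -0.28 to 0.01 in NT, and the Schwann cell mean over -0.05 to 0.05 in KD and 0.17 to 0.26 in NT. Detection differed within the lists. The microglial genes Aif1, Itgam, Cx3cr1 and Tmem119 were well above background in 0 of 16 samples, but 4 of the 8 tested microglia genes were so in all 16. The pericyte genes Rgs5 and Kcnj8 were so in 1 and 2 samples, but 5 of the 7 tested pericyte and smooth muscle genes were so in all 16.

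The genes most like a member were taken for the precursor and the myelinating-stage member whose group means spread most. For Cspg4 (SD of the group means 0.30), the highest Pearson correlations over the 16 samples with dye means removed were those of Nat8b at 0.956, Ammecr1l at 0.952, Npr2 at 0.948, Agrn at 0.946 and Tmem168 at 0.944. For Bcas1 (SD 0.68) they were Kif2a at 0.944, Pld2 at 0.936, Shd at 0.935, Cdhr2 at 0.929 and Me1 at 0.928. These were the highest of 12308 genes, rested on 12 to 16 samples each, and the samples share arrays, so the values are a description. No other member of the lineage stood among them. Cspg4 and Bcas1 themselves correlated at 0.85 on probe 1 of Bcas1 and at 0.82 on probe 2. Probe 1 of Bcas1 correlated at 0.70 with Pdgfra, 0.56 with Sox10 and 0.26 with Olig2. With the other myelinating-stage members it correlated at -0.56 for Cnp, -0.14 for probe 1 of Mbp and 0.23 for Mag.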

How the data were processed

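The 16 samples were grouped by their source labels and titles. A description field that speaks of adult brain tissue contradicts the culture protocol and was not used. Per the file headers, the intensity values are means of the spot pixels and medians of the local background, read by Agilent Feature Extraction 10.7.3.1 and not normalized. The deposited table of log2 values equals median signal minus median background, centred on each array's median (slope and r of 1), and served as an alternative, as did the scanner's processed intensity, which the deposited files also hold.

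Here normexp (offset 50) corrected the background, and signals were balanced between dyes by loess within arrays and between arrays by Aquantile in limma 3.58.1 (with statmod 1.5.0 and R 4.3.3). Outlier spots were left out and spots of a probe averaged. A probe was kept if 4 or more of the 16 samples were well above background and it had at least 12 values and at least 2 per group, which left 27294. The fit held group and dye as terms, the array as a random block (correlation 0.562) and empirical Bayes moderation. P-values are two-sided and Benjamini-Hochberg adjusted over all 27294 probes, at a threshold of 0.05. For genes with several probes the one of highest mean was counted. Figures were drawn with matplotlib 3.10.9.

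Members, lists and alternatives were chosen with earlier results of these data known. Named are all member probes and, per other list, up to 4 genes of smallest p, with exceptions marked. Some genes of these lists are not reported here and were left out of the lists' counts, medians and means, whatever their values. Same-numbered samples of KD and NT correlated at 0.13 to 0.265 after group means were removed, all above 0.1, so the numbers were taken to pair KD with NT, and likewise KD with NO (0.162 to 0.268) and KD with OE (0.135 to 0.26). Other pairs of groups did not meet that rule. The main fit held no term for these numbers, so it ignored that pairing, and the fit with the replicate number as a block was an alternative. The labels call the replicates biological, and do not say which cultures share a litter. The fit was tested on simulated data.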

Additional observations from a re-analysis of the deposited data

Results flagged for a closer look

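Of 55 groups of 4 values looked at over the member probes and the stage means, 2 held a culture that stood apart from the other 3 of its group, where chance gives about 1 in 20. Olig2 in KD replicate 3, at 7.70, was the highest of its group, whose other values were 7.58, 7.58 and 7.55. The mean of the myelinating-stage genes in NO replicate 2, at 0.15, was the highest of its group, whose other values were all 0.13. In both groups the whole range was narrow compared with that of the other groups.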

How the results depend on the processing

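The direction of every member that passed the test was kept under all the alternatives run, and the settings that ended a call are given beside it above or here. With only probes well above background in all samples, 4 of the 9 members were tested, and Cspg4 was not among them. The sign changes below concern differences that did not pass. Without normalization between arrays the median of all probes itself shifted, by 0.64 in KD against NT, -0.22 in NT against NO, 0.31 in KD against NO, 0.36 in OE against NT and 0.25 in KD against OE, and in the deposited log2 values by 0.16 in KD against NT, -0.16 in OE against NO, 0.2 in KD against NO, -0.19 in OE against NT and 0.35 in KD against OE. Array signal over background limits Pdgfra and probe 2 of Mbp most. The Mbp call in KD against NO was also lost in the deposited log2 values (limma adjusted p = 0.178), without normalization between arrays (0.665) and with only those 2 groups in the fit (0.0732). That in KD against OE was lost in the deposited values (0.289), with quantile in place of loess (0.0502), without normalization between arrays (0.643), with outlier spots kept (0.0507) and with an intensity trend (0.0537). The causes were not tested. With a log2 difference of at least 0.58 also required, the members past the test numbered 0 in KD against NO, 1 in OE against NT and 0 in KD against OE. With a log2 difference of at least 0.58 also required, all probes past it numbered 3668 in KD against NT, 3697 in NT against NO, 1779 in KD against NO, 3655 in OE against NT and 1740 in KD against OE. With the scanner's processed signals, the members past the test numbered 4 in NT against NO. With the scanner's processed signals, all probes past it numbered 2 in OE against NO. With the scanner's processed signals, the difference of the stage medians was 1 in KD against NT, -1.16 in NT against NO, -0.4 in KD against NO and 0.91 in OE against NT. With the scanner's processed signals, OE against NO changed sign at 0.13 for Pdgfra and -0.03 for Olig1. In the deposited log2 values, all probes past it numbered 3 in OE against NO and 6368 in KD against OE. In the deposited log2 values, the difference of the stage medians was 0.56 in KD against NT, -0.72 in NT against NO, 0.46 in OE against NT and 0.32 in KD against OE. KD against NT changed sign in the deposited log2 values, at 0.01 for Mag. OE against NO changed sign in the deposited log2 values, at -0.15 for Bcas1 probe 1, -0.01 for Bcas1 probe 2 and -0.07 for Cnp. KD against NO changed sign in the deposited log2 values, at 0.09 for Cspg4 and 0.01 for Bcas1 probe 2. KD against OE changed sign in the deposited log2 values, at 0.32 for Olig2, 0.2 for Sox10, 0.02 for Bcas1 probe 2 and 0.05 for Mag. Without normalization between arrays, the members past the test numbered 5 in KD against NT, 0 in KD against NO and 0 in KD against OE. Without normalization between arrays, all probes past it numbered 11924 in KD against NT, 0 in OE against NO, 2716 in NT against NO, 2551 in OE against NT and 195 in KD against OE. KD against NT changed sign without normalization between arrays, at 0.26 for Cnp, 0.35 for Mbp probe 1, 0.72 for Mbp probe 2 and 0.76 for Mag. OE against NO changed sign without normalization between arrays, at 0.26 for Pdgfra, -0.2 for Olig1, -0.04 for Bcas1 probe 1, 0.04 for Mbp probe 1, 0.11 for Mbp probe 2 and 0.12 for Mag. KD against NO changed sign without normalization between arrays, at 0.52 for Pdgfra, 0.25 for Cspg4, 0.06 for Olig2, 0.18 for Sox10, 0.28 for Bcas1 probe 2, 0.29 for Mbp probe 2 and 0.47 for Mag. OE against NT changed sign without normalization between arrays, at 0.41 for Mag. KD against OE changed sign without normalization between arrays, at 0.26 for Pdgfra, 0.34 for Olig2, 0.19 for Sox10, 0 for Bcas1 probe 2, 0.18 for Mbp probe 2 and 0.35 for Mag. With only probes well above background in all samples, the members past the test numbered 1 in KD against NT, 1 in NT against NO and 1 in OE against NT. With array means as the unit, the members past the test numbered 1 in KD against NT, 1 in NT against NO, 0 in KD against NO, 0 in OE against NT and 0 in KD against OE. With array means as the unit, all probes past it numbered 3568 in KD against NT, 0 in OE against NO, 3851 in NT against NO, 1125 in KD against NO, 3910 in OE against NT and 1126 in KD against OE. OE against NO changed sign with array means as the unit, at 0 for Olig1. With only the 2 groups compared in the fit, all probes past it numbered 0 in OE against NO, 3773 in NT against NO and 4969 in KD against OE. With quantile in place of loess, the members past the test numbered 0 in KD against OE. With quantile in place of loess, OE against NO changed sign at -0.01 for Bcas1 probe 1. With quantile in place of loess, OE against NT changed sign at 0 for Mag. With outlier spots kept, the members past the test numbered 0 in KD against OE. With an intensity trend in eBayes, the members past the test numbered 0 in KD against OE. When each culture or array was left out in turn, the values ranged as follows. Members past the test ranged over 0 to 3 in KD against NT, 0 to 1 in KD against NO, 0 to 2 in OE against NT and 0 to 1 in KD against OE. All probes past the test ranged over 3345 to 6722 in KD against NT, 0 to 45 in OE against NO, 1197 to 3003 in KD against NO, 3525 to 6921 in OE against NT and 1216 to 2773 in KD against OE. In KD against NT the range crossed 0, at -0.08 to 0.15 for Sox10 and -0.63 to 0.04 for Cnp. The difference of the stage medians ranged over -0.38 to 0.09 in OE against NO, -0.57 to -0.04 in NT against NO, -0.32 to 0.12 in KD against NO and -0.21 to 0.24 in KD against OE. In OE against NO the range crossed 0, at -0.29 to 0.2 for Pdgfra, -0.62 to 0.52 for Olig1, -0.51 to 0.52 for Bcas1 probe 1, -0.19 to 0.49 for Bcas1 probe 2, -0.1 to 0.27 for Cnp, -0.3 to 0.22 for Mbp probe 1, -0.46 to 0.11 for Mbp probe 2 and -0.3 to 0.06 for Mag. In NT against NO the range crossed 0, at -0.44 to 0.07 for Mbp probe 1 and -0.52 to 0.04 for Mbp probe 2. In KD against NO the range crossed 0, at -0.21 to 0.05 for Cspg4, -1.08 to 0.16 for Bcas1 probe 1 and -0.5 to 0.29 for Bcas1 probe 2. In OE against NT the range crossed 0, at -0.16 to 0.98 for Olig1, -0.11 to 0.24 for Mbp probe 2 and -0.18 to 0.17 for Mag. In KD against OE the range crossed 0, at -0.01 to 0.23 for Cspg4, -0.17 to 0.03 for Olig2, -1.09 to 0.15 for Bcas1 probe 1, -0.65 to 0.14 for Bcas1 probe 2 and -0.27 to 0.08 for Mag. With the replicate number as a block, members past the test numbered 3 in KD against NT, 0 in OE against NO, 2 in NT against NO, 1 in KD against NO, 2 in OE against NT and 1 in KD against OE. The block took probe 2 of Bcas1 past the threshold in NT against NO (limma adjusted p = 0.00259) and changed no call other than that and those given above. Same-numbered samples of NT and NO correlated at 0.035 for number 1 and at 0.203 to 0.332 for numbers 2 to 4. They thus missed the rule for pairing at number 1 alone, and whether they are paired is not known. In NT against NO 6 of 8 samples correlated best with their own number, in OE against NT 4 and in OE against NO 3.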
